A study of Homo sapiens with 12 samples.

Results

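The comparison described here set an inducible RBFOX1 line of HEK293 (human embryonic kidney cells) against parental HEK293 cells, with 3 libraries a group, 6 of the 12 libraries of the series. Per the labels, the inducible line was built with the Flp-In T-REx system from a clone deficient in RBFOX2 and carries HA-Flag-tagged Rbfox1 (mFox1 in the line's name) behind a doxycycline promoter. The line received 0.5 µg/ml doxycycline for 2 weeks. The parental cells also received doxycycline, for which no separate dose or time is stated. The line therefore descends from 1 clone, so that clone, RBFOX2 and RBFOX1 differ together between the groups and cannot be told apart. A further 6 libraries of the series (experiment 1) came from the same line, 3 of them uninduced and 3 induced, and their values are set beside the results where the same cells allow it. The labels do not say whether replicates came from separate cultures, so a p-value here measures the spread among these libraries alone, and that spread may be technical.

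RBFOX proteins bind RNA in introns beside alternative exons and act on splicing, and RBFOX1 is best known from neurons and muscle. Circular RNAs (circRNAs) form by back-splicing, in which an exon's end joins a start that lies upstream of it, so their amount depends on transcription of the host gene as well as on splicing. HEK293 cells are known for an abnormal chromosome number that varies between cultures, and a line grown from 1 cell keeps the chromosome copies and the silenced genes of that cell. RNA reads were measured here and DNA was not, so gene dosage and gene silencing cannot be told apart. In bulk RNA, fewer cells that express a gene and less RNA per cell cannot be told apart either.

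Total gene counts were 37663525 to 50261916 per library, with 18945 to 28691 back-splice reads, and log2 levels correlated at a mean r of 0.993 to 0.994 with the same group and 0.929 to 0.932 with the other. Haematopoietic markers summed to 7.38 to 8.11 CPM, the read counts scaled to library size, in parental and 2.74 to 3.37 CPM in induced libraries. Of these 20 markers 4 were tested and 3 fell, among them LCP1 and CORO1A, while CD3D, CSF1R, HBB and HBG1 were not listed in this gene table. Of all genes tested, 32.9% fell. Hepatocyte markers summed to 1.13 to 1.59 CPM over the 6 libraries, with 0 of 1 tested gene called. Transcription factors of kidney development, such as WT1 and FOXC1, summed to 595 to 610 CPM in parental and 502 to 528 CPM in induced libraries, though PAX8, a defining kidney factor, had 1 read in all.

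RBFOX1 had 0 reads in the 3 parental libraries and 1495, 1506 and 1537 reads in the 3 induced ones. Reads of the transgene and of the cells' own gene cannot be told apart in this count. Its level of 40.1 ± 0.704 CPM (SD, n = 3) was at least 1825-fold above the floor of 3 reads over the parental libraries. RBFOX2 stood at 183 ± 0.0782 CPM in parental cells and at 50.1, 55.9 and 46.4 CPM in the induced libraries, with no overlap, and fell by 1.85 on the log2 scale (SE 0.0580, adjusted p = 8.48e-17 in edgeR's quasi-likelihood test). RBFOX3, the third of the family, had 0.921 and 0.885 CPM and was not called (log2 -0.06). Of 17945 genes tested, 5766 were higher (32.1%) and 5903 lower (32.9%) in the induced line, 65.0% in all. Within the line, induced against uninduced cells of experiment 1 gave calls for 20.9% of 18978 genes (10.5% higher, 10.4% lower).

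Some genes were read in 1 group only. In the line 33 genes were on, with no read in any parental library and at least 10 in every induced one, 0.200% of the 16522 genes that reached this level there. After RBFOX1 the highest was MUC16, the membrane mucin that carries the antigen CA125, with 31.4, 28.5 and 14.4 CPM. ZNF677, a zinc finger gene of chromosome 19, had 14.8, 13.9 and 12.7 CPM and was at least 628-fold higher. The vesicle priming gene CADPS, which acts in neuropeptide release, had 10.3, 10.7 and 7.75 CPM, a level at least 437-fold higher. LHFPL4, which anchors inhibitory receptors at the synapse, had 7.16, 7.85 and 7.25 CPM and was at least 337-fold higher. The receptor subunit gene GABRA5 (at least 209-fold), SERP2 (at least 166-fold) and RAMP1 (at least 150-fold), which carries the CGRP receptor to the surface, followed. GSTT2, at least 145-fold higher, has a near-identical copy, so its reads are uncertain. By gene type 17 of the 33 were protein coding and 10 were long noncoding RNAs.

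In the other direction 112 genes had 0 reads in every induced library and at least 10 in every parental one, 0.657% of 17053 genes at that level in parental cells. PABPC4L, of the cytoplasmic poly(A)-binding protein family, had 1742, 2192 and 2373 parental reads and was at least 1737-fold lower. ZNF22 had 1477, 1668 and 1963 reads in parental cells and was at least 1408-fold lower. SOX11, a transcription factor of neural progenitors, had 23.3, 25.7 and 25.1 CPM and was at least 930-fold lower. Further genes at 0 reads were GAL, the neuropeptide galanin (at least 667-fold lower), TNFRSF10A, a TRAIL death receptor (at least 459-fold), SLC6A11, a GABA transporter (at least 418-fold), CTSF, the protease cathepsin F (at least 302-fold), and FAM50B, a retrocopy known for imprinting (at least 298-fold). Of the 112 genes 73 were protein coding and 23 were long noncoding RNAs. The plot of on and off genes shows both sets library by library.

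**Figure D1:**
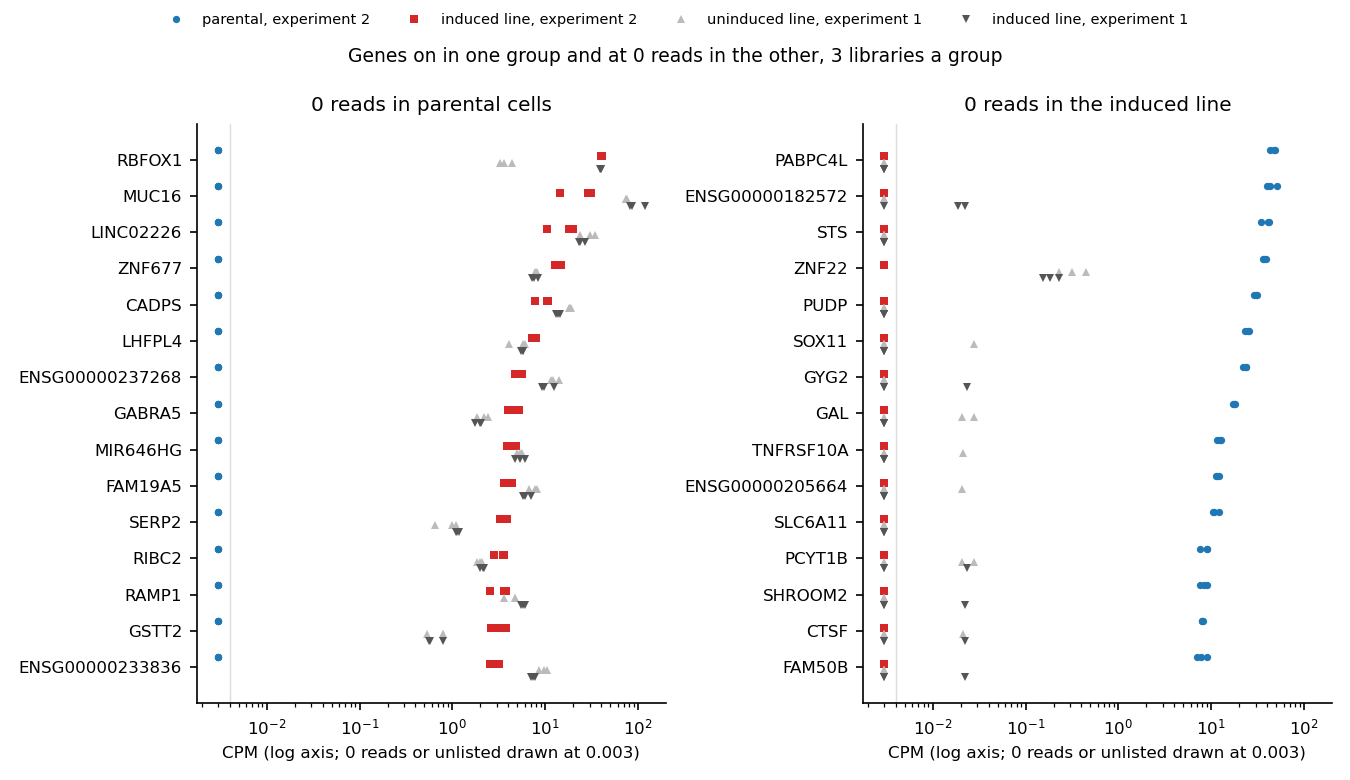
CPM on a log axis of the 15 highest genes at 0 reads in parental cells (left) and the 15 highest at 0 reads in the induced line (right), each point 1 library, with 0 reads or unlisted genes drawn at 0.003 CPM. RBFOX1 stands at 40.1 CPM in induced libraries of experiment 2 and at 3.76 CPM in uninduced ones of experiment 1, while the other genes on the left are on in both groups of the line and those on the right stay at or near 0 in both.

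Libraries of the same line in experiment 1 held most of these genes in the same state, with and without induction. Of the 33 genes that were on, all were listed there and 28 had at least 10 reads in every uninduced library. MUC16 stood at 74.4 CPM in uninduced cells, CADPS at 18.5 CPM and ZNF677 at 7.94 CPM. RBFOX1 itself was at 3.76 CPM before induction and 39.2 CPM after it. Of the 112 genes that were off, 33 were not listed in experiment 1, 61 in all had no read in its uninduced libraries, and 96 had at most 3. ZNF22 was the exception with most reads, 42 over the 3 uninduced libraries, a level of 0.332 CPM against 37.3 CPM in parental cells. These CPM were scaled within each experiment, and the mitochondrial ribosomal RNA MT-RNR2 took a far larger share of counts in experiment 1, so they show the state of a gene and not a fold between experiments.

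Promoter sequence is shown for a pair of genes of each direction, PABPC4L and ZNF22 (off) and CADPS and LHFPL4 (on), to let the CG dinucleotides, where DNA methylation acts, be seen in genes that switched between silence and expression. Each is the 250 bases before the start in RefSeq on GRCh38.p14, 5′ to 3′ along the gene, with CG in capitals: PABPC4L at chr4:134201790-134202039 (minus strand), ZNF22 at chr10:45000673-45000922 (plus), CADPS at chr3:62875417-62875666 (minus) and LHFPL4 at chr3:9553823-9554072 (minus).
PABPC4L: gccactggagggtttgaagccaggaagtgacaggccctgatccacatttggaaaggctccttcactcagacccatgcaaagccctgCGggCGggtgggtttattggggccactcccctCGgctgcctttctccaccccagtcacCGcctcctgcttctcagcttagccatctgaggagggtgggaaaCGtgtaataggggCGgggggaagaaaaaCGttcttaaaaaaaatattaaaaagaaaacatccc
ZNF22: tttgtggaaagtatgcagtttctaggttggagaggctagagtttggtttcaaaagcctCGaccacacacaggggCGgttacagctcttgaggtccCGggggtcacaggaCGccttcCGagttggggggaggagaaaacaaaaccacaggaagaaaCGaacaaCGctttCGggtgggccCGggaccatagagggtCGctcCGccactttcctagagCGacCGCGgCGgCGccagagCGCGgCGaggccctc
CADPS: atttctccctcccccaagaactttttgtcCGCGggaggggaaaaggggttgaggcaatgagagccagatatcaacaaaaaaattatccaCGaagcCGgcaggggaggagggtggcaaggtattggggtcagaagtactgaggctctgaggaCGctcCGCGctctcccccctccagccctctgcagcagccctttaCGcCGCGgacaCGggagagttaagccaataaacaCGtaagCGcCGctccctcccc
LHFPL4: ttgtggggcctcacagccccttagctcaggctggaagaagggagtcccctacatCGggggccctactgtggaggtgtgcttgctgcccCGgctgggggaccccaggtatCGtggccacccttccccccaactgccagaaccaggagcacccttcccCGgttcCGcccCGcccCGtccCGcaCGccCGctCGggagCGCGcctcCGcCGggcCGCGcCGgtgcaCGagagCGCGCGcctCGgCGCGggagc
The letters CG, searched on 1 strand since they read the same on the other, occurred 7, 19, 14 and 25 times in this order. As many or more were found in 58.9%, 34.6%, 44.8% and 21.6% of all promoters of the table over the same length. The counts thus ranged from common to fairly dense in both directions. Methylation was not measured, and a count of CG says nothing of whether a promoter was methylated.

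Several on and off genes were neighbours among the genes with expression. Runs at 0 reads in the line were BRINP3 with LINC01351 on chromosome 1, GABRA4 with GABRB1 on chromosome 4, C10orf25 with ZNF22 on chromosome 10, FZD10-AS1 with FZD10 on chromosome 12 and LINC01896 with SALL3 on chromosome 18. On X there were 3 such runs, GYG2 with ARSE, then PUDP, STS, MIR4767 and PNPLA4, and IL1RAPL1 with NR0B1. Runs that were on in the line were NFYAP1 with LINC00355 on chromosome 13 and GABRA5 with GABRG3 on chromosome 15. Reads of FZD10 and its antisense neighbour FZD10-AS1 cannot be told apart without strand, for which no setting is stated. Whether genes of the other runs overlap and share reads was not checked.

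GABA-A receptors, the chloride channels of inhibitory synapses, were a family where members moved both ways (chosen after their values were seen). GABRB1 had 127, 134 and 162 reads in parental cells and 0 in the induced line, at least 117-fold lower. GABRA2 with 30, 32 and 63 reads and GABRA4 with 23, 14 and 30 reads went to 0 as well, at least 33.8-fold and 18.5-fold lower. GABRA5 went from 0 to 173, 151 and 196 reads and GABRG3 from 0 to 19, 25 and 19.

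The end of the short arm of X held an interrupted stretch of lost transcripts. In the pseudoautosomal region at the tip, SLC25A6, a mitochondrial ADP/ATP carrier, had 321 CPM in parental and 291 CPM in induced cells, and CD99, a cell surface glycoprotein, fell from 141 to 77.1 CPM. CD99 also fell within the line, from 44.3 CPM in uninduced to 23.8 CPM in induced cells of experiment 1 (log2 -0.90). SLC25A6 was not called there (0.086). Next inward, GYG2, which primes liver glycogen, had 962, 996 and 1196 reads in parental libraries and 0 in induced ones, and PRKX, a cyclic AMP-dependent kinase, went from 38.7 ± 0.168 to 0.0973 ± 0.0151 CPM. PUDP, a pseudouridine phosphatase, had 1262, 1292 and 1520 parental reads and STS, the steroid sulfatase whose loss causes X-linked ichthyosis, 1382, 1886 and 2048, and both had 0 in the line. PNPLA4, a lipase of the patatin family, had 258, 287 and 317 parental reads and 0 induced ones.

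Expression returned beyond PNPLA4. ANOS1, the secreted protein mutated in Kallmann syndrome, rose from 8.27 ± 0.577 to 39.8 ± 2.62 CPM (log2 2.26, adjusted p = 4.73e-16 in edgeR). TBL1X, a corepressor subunit, had 24.1 ± 2.02 and 27.8 ± 1.86 CPM, and its call (adjusted p = 0.0191) ended without parental library 1 (0.0975), induced library 1 (0.0534) or induced library 2 (0.0807). Farther inward, SHROOM2, an actin regulator, had 364, 381 and 379 reads and then 0, and WWC3 went from 8.80 to 0.00878 CPM. CLCN4, a chloride-proton exchanger, fell from 7.67 ± 1.09 to 0.779 ± 0.302 CPM, MID1, a ubiquitin ligase on microtubules, from 349 ± 22.6 to 75.3 ± 4.14 CPM and HCCS, the cytochrome c haem lyase, fell by 1.26 on the log2 scale. Experiment 1 libraries showed the same alternation: ANOS1 was at 66.5 CPM and MID1 at 67.6 CPM in uninduced cells, STS, PUDP and PNPLA4 were not listed, and SHROOM2 had 0 reads in uninduced libraries and 1 read in all in induced ones.

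**Figure D2:**
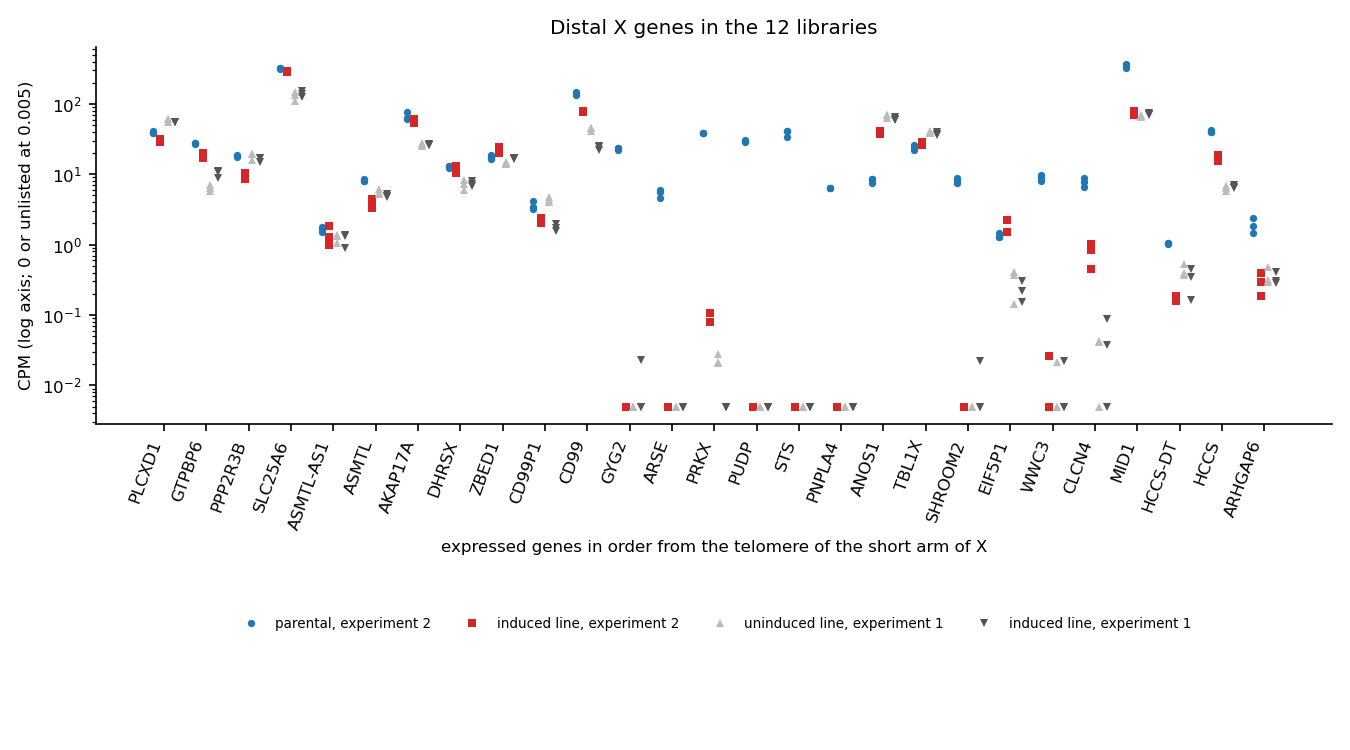
CPM (log axis, 0 reads or unlisted at 0.005) of 27 genes of the distal short arm of X in order from the telomere, each point 1 of the 12 libraries. From GYG2 to PNPLA4 the line sits at or near 0 in both experiments, ANOS1 and TBL1X are expressed at 39.8 and 27.8 CPM, and SHROOM2 and WWC3 are at or near 0 again.

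Among protein-coding genes with at least 5 CPM in both groups and no overlap between them, AMOT had the largest fall, from 302, 331 and 335 to 5.35, 6.11 and 6.02 CPM (log2 -5.79, SE 0.0701, adjusted p = 1.71e-23 in edgeR). AMOT encodes angiomotin, a scaffold that holds the coactivator YAP. GSTP1, a glutathione transferase known for promoter methylation in tumours, fell from 153 ± 14.1 to 14.6 ± 0.357 CPM (log2 -3.39). HAND1, a transcription factor of heart and neural crest, fell by 2.78 on the log2 scale, SHISA2 by 2.59, NRIP3 by 2.45, TNNT1, a troponin of slow muscle, by 2.44, and SELENOP, the selenium transport protein, by 2.31. ANKRD1 (-2.28), a YAP target, BHLHB9 (-2.25) and LYPD1 (-2.24) completed the 10 largest falls. Experiment 1 libraries of uninduced cells had AMOT at 8.46 CPM and GSTP1 at 11.5 CPM.

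ZFP82, a zinc finger gene of chromosome 19, led the rises, from 4.59, 6.13 and 6.23 to 84.1, 80.1 and 75.9 CPM (log2 3.81, SE 0.0848, adjusted p = 3.37e-19 in edgeR). BEX1, a small adaptor of neurotrophin signalling, went from 6.62 ± 0.612 to 61.4 ± 1.44 CPM (3.22). The 10 largest rises also held FAM129A (2.98), the integrin subunit gene ITGA8 (2.96) known from kidney development, CAV1 (2.94), the coat protein of caveolae, ETV1 (2.91), an ETS transcription factor, SAT1 (2.88), which acetylates polyamines, the transporter gene SLC16A14 (2.86), and the zinc finger genes ZNF850 (2.96) and ZNF829 (2.88). ETV1 stood at 41.9 CPM in induced cells of experiment 2 but at 5.14 CPM in those of experiment 1, and at 5.54 CPM in parental cells. ZFP82 stood at 77.1 CPM in induced cells of experiment 1.

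Imprinted genes, which are transcribed from the copy of 1 parent, gave some of the widest changes. Of 15 tested members 8 rose and 5 fell, with a median log2 fold change of 0.30 beside -0.0090 over all genes tested. Among all those genes 32.1% rose and 32.9% fell. PEG10, a retrotransposon-derived gene of chromosome 7, had 1.57, 2.07 and 1.27 CPM in parental cells and 524, 556 and 504 CPM in the line (log2 8.34, SE 0.0945). SGCE, the sarcoglycan gene beside it, rose from 10.1 ± 0.367 to 39.1 ± 0.812 CPM (1.96). MEST, of the hydrolase fold family, had 1, 6 and 0 reads in parental and 149, 173 and 166 in induced libraries. MKRN3, the ring finger gene mutated in precocious puberty, had 2, 10 and 6 against 395, 361 and 297 reads. PLAGL1, a zinc finger growth regulator, went the other way, from 19.3, 19.8 and 22.2 to 0.479, 0.264 and 0.400 CPM (log2 -5.74). H19 fell by 1.35 and KCNQ1OT1 by 0.47 on the log2 scale. These groups did not overlap for PEG10, MEST, MKRN3 or PLAGL1.

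Factors of DNA methylation and repressive chromatin moved much less. Of 36 tested, 13 rose and 12 fell, with a median of 0.057, beside 32.1% higher and 32.9% lower of all genes tested. MPHOSPH8, a subunit of the silencing complex HUSH, fell by 0.70, its partner FAM208A by 0.54, the methyltransferase gene DNMT3B by 0.53 and CBX2 by 0.50. CBX7 rose by 0.49, CBX6 by 0.43, MORC2, a chromatin compactor that works with HUSH, by 0.38 and ATF7IP by 0.34. Each of these changes was under 2-fold.

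Genes of cell identity changed in both directions, as did all genes tested, of which 32.1% rose and 32.9% fell. Of 32 transcription factors of the neural lineage 14 rose and 12 fell. ZIC1 rose from 1.17 to 7.90 CPM (log2 2.76), INSM1 by 2.52 and DLX2 by 1.22, and NEUROD1 was among the genes that were on. SOX11 was off, OTX2 went from 3.79 to 0.00878 CPM and NHLH2 from 0.732 to 0.0355 CPM. Of 15 transcription factors of the kidney lineage 4 rose, led by OSR1 (1.41) and EYA1 (1.37), and 4 fell, led by POU3F3 (-2.11) and SIX2 (-1.15), with a median of -0.027.

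Neuronal genes of the cytoskeleton and synapse had 17 of 35 members higher and 11 lower, with 0.38 as their median. Of all genes tested, 32.1% were higher and 32.9% lower. CADPS and LHFPL4, on in the line, are members. The dendrite gene MAP2, whose protein binds microtubules, had 0.737, 0.970 and 1.19 CPM in parental and 13.4, 12.5 and 11.2 CPM in induced libraries (log2 3.65). SNAP25, of the membrane fusion complex, rose by 2.97. NEFM, a neurofilament subunit, went from 34.7, 34.6 and 38.7 to 0.426, 0.632 and 0.453 CPM (log2 -6.15). The groups did not overlap for MAP2 or NEFM, which moved in opposite directions.

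Cadherins outside the protocadherin clusters mostly fell: 18 of 24 were lower and 5 higher, with a median of -1.93. Among all genes tested, 32.9% were lower and 32.1% higher. PCDH17 went from 12.4, 11.1 and 10.7 to 0.0798, 0.237 and 0.160 CPM. CDH20 and PCDH8 were at 0 in the line, at least 17.5-fold and 15.5-fold lower, and CDH18 had 0.688 CPM against 0.00878 CPM. CDH3, the placental cadherin, rose from 0.904 to 6.37 CPM (log2 2.81), CDH4 by 2.39 and CDH23 by 1.13. The neural cadherin gene CDH2, at 211 CPM in parental cells, fell by 0.53.

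Epithelial genes had 7 of 22 higher and 12 lower, with a median of -0.55, beside 32.1% higher and 32.9% lower of all genes tested. EPCAM, an epithelial adhesion protein, had 2.43, 2.36 and 2.84 CPM against 26.6, 26.1 and 27.3 CPM (log2 3.38), and MARVELD2, of tricellular junctions, rose by 4.03 and CLDN1 by 2.47. CLDN6 fell by 3.54, the protease inhibitor gene SPINT1 by 2.98 and TJP3 by 2.95. Mesenchymal genes had 8 of 26 higher and 11 lower, with a median of -0.19. SPARC, a secreted matrix protein, went from 89.5, 82.2 and 86.8 to 0.0266, 0.132 and 0.213 CPM (log2 -9.41). COL3A1 fell by 4.31 and the receptor kinase gene AXL by 3.22, while ACTA2, smooth muscle actin, rose by 4.09 and PRRX1 by 2.56.

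Signalling families also had members on both sides, beside 32.1% higher and 32.9% lower of all genes tested. Of 46 genes of the Wnt pathway 23 rose and 13 fell (median 0.27). The ligand gene WNT16 rose by 4.04 and the secreted antagonist gene SFRP5 by 3.52, while the receptor gene FZD10 was off, the target gene SP5 fell by 5.04 and the antagonist genes DKK1 and WIF1 by 2.68 and 2.61. Of 47 genes of TGF-beta and BMP signalling 23 rose and 14 fell (median 0.25), with INHBE (4.13) against BMP5 (-2.16) and GREM1 (-1.93), and TGFB1 fell from 13.1 ± 0.589 to 5.27 ± 1.06 CPM. Guidance molecules had 27 of 61 higher, with PLXNA4 (3.77) and SEMA3E (1.92), and 21 lower, with EPHB6 (-3.65) and ROBO3 (-1.52). In antigen presentation 9 of 22 rose and 4 fell. HLA-B, of class I, fell from 70.1 ± 4.67 to 51.0 ± 3.69 CPM. HLA genes are near-identical and vary between alleles, so its reads are uncertain.

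HOX genes, which set position along the body axis, rose in 26 of 37 cases and fell in 5, with a median of 0.68. Among all genes tested, 32.1% rose and 32.9% fell. With induction in experiment 1, 10 of 36 HOX genes rose and 0 fell (median 0.22), where 10.5% of all genes rose and 10.4% fell. Their summed level was 248 and 493 CPM for the A cluster in parental and induced cells, 201 and 311 CPM for B, 67.4 and 137 CPM for C and 195 and 187 CPM for D, so that D, with 2 higher and 2 lower of 8, did not follow the others. Clustered protocadherins had 9 of 23 higher and 2 lower, beside 32.1% and 32.9% of all genes, at low levels of 21.8 to 34.3 CPM summed in a library. Numbered zinc finger genes had 244 of 462 higher and 107 lower, beside 32.1% and 32.9% of all genes tested. All 34 inside a segment of chromosome 19 described next were higher (median 2.06), a description only, since the segment was chosen on the fold changes of its hosts, against 114 of 187 elsewhere on that chromosome (0.44) and 96 of 241 on other or unknown chromosomes (0.017). Single members still went to the extremes, with ZNF320 at 25.9, 28.7 and 28.4 CPM in parental cells and 0 to 2 reads in the line, and ZNF667 at 0, 0 and 2 parental reads against 403, 356 and 399.

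Fold changes were not spread evenly over the genome. Positions on GRCh37 came from the circRNA tables, which place 7209 tested host genes, and the median of these hosts was 0.017. Relative to it, chromosome medians ran from -0.25 on chromosome 16 and -0.24 on chromosome 2 to 0.24 on chromosome 20 and 0.29 on chromosome 18. On chromosome 16, 163 of 274 hosts were lower and 30 higher, and on chromosome 20, 124 of 199 were higher and 30 lower, against 35.6% lower and 39.1% higher among all hosts. Per-library medians of the groups did not overlap for 20 of 23 chromosomes (2-sided exact permutation p = 0.1, the smallest that 3 against 3 libraries allow), the exceptions being chromosomes 19 (p = 0.3), 21 (p = 0.6) and 22 (p = 0.5). Library values were deviations from the parental mean of each gene, so the groups were not treated alike and this test is not strictly exact.

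Shifts within chromosomes were larger than those of whole chromosomes. Of 264 windows of 10 Mb with at least 10 hosts, 56 had a median at least 0.3 above that of all hosts and 35 at least 0.3 below. Joined where adjacent, they made 24 higher and 24 lower segments with 2063 hosts, 28.6% of all. Segments were chosen on these fold changes, so their medians are a description and were not tested. The plot of running medians shows them as steps, against a much flatter profile within the line.

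**Figure D3:**
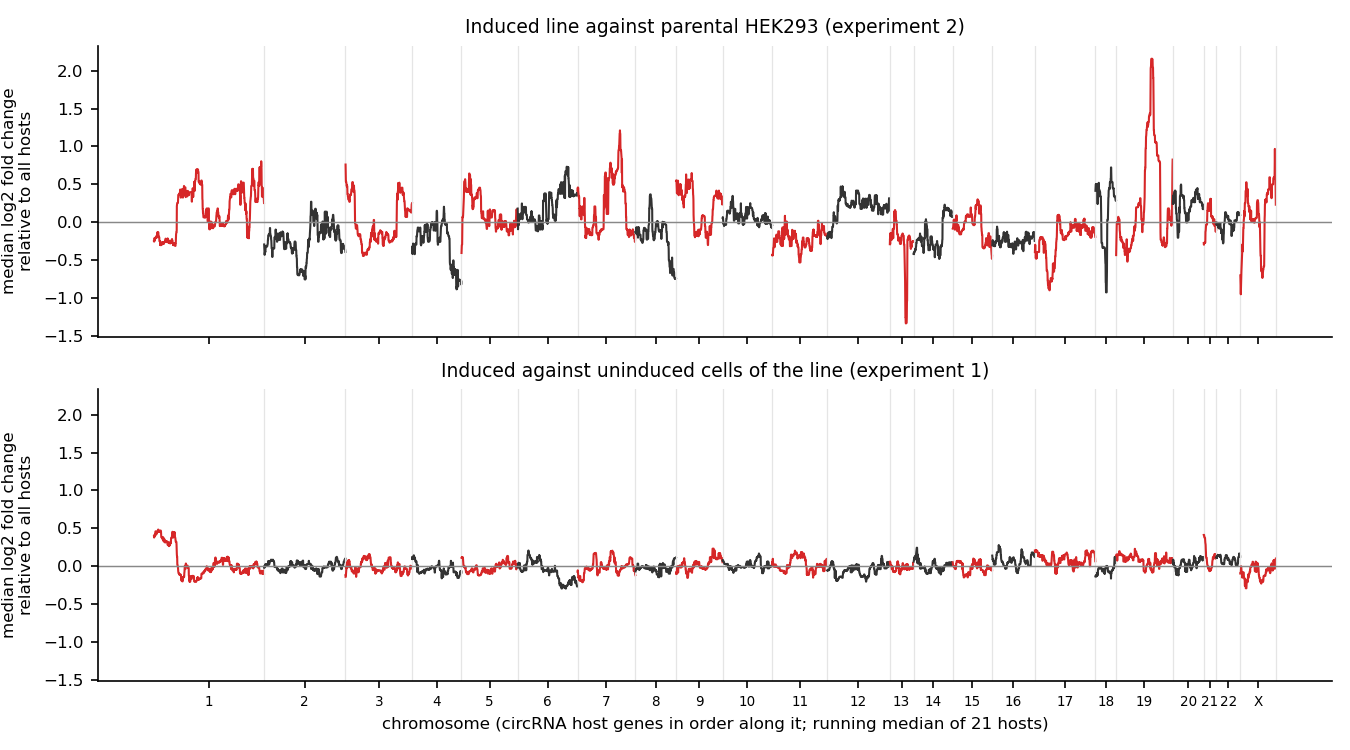
Running median of 21 circRNA host genes of the log2 fold change, relative to all hosts, with hosts in order along chromosomes 1 to 22 and X, for the induced line against parental cells (top) and for induced against uninduced cells of the line (bottom). The top panel has a peak on chromosome 19 and troughs on chromosomes 13, 18, 4 and 8, and the bottom panel lies closer to 0, with its highest values at the starts of chromosomes 1 and 21.

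The highest segment lay on chromosome 19 from 30462100 to 39957385, with a median of 1.39 relative to all hosts, and 65 of its 67 hosts were higher and 0 lower. UBA2, a subunit of the SUMO-activating enzyme, had 319, 304 and 301 CPM in parental and 915, 881 and 925 CPM in induced libraries (log2 1.56). GPI, the glycolytic glucose-6-phosphate isomerase, had 201, 191 and 188 against 595, 604 and 595 CPM (1.63), and PAF1, ACTN4 and ZNF146 rose by 1.03, 1.05 and 1.13, while HNRNPL rose by 0.45. The groups stood far apart for UBA2 and GPI. Genes of the segment that host no circRNA, which the choice of windows did not use, had 65 of 71 higher and 1 lower. Back-splice reads of its hosts numbered 73, 103 and 90 in parental and 158, 167 and 180 in induced libraries, a log2 difference of 1.20 in CPM.

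The lowest lay on chromosome 13 from 73333611 to 79953042 (median -1.34), where 10 of 11 hosts were lower and 0 higher. DIS3, the nuclease of the exosome, had 485, 483 and 481 CPM against 177, 164 and 176 CPM (log2 -1.49), and MYCBP2, a ubiquitin ligase of axons, 372, 417 and 404 against 162, 155 and 142 CPM (-1.38). RBM26 (-1.36), RNF219 (-1.40) and TBC1D4 (-1.33) had nearly the same fold change. Neighbours that host no circRNA had 7 of 9 lower and 0 higher. Back-splice reads fell short in the same way, with 95, 116 and 149 in parental and 25, 31 and 36 in induced libraries.

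Of the other 12 segments at least 0.5 from all hosts, 4 were higher. Chromosome 7 from 80387647 to 129832663 was the longest (median 0.65, 107 of 127 hosts higher) and held MCM7 (0.51), of the replicative helicase, CDK6 (1.05) and PSMC2 (0.72). Chromosome 9 from 70432923 to 88961395 had a median of 0.54. On X, 130498723 to 138908982 (0.53) and 152014826 to 155149544 (0.58) were higher, the second with FLNA, the actin crosslinker filamin A, at 326, 345 and 261 against 866, 933 and 972 CPM (log2 1.57), and with RPL10 (1.17).

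The 8 further low segments were on chromosomes 2, 4, 8, 17 and X. Chromosome 4 had 139981478 to 159812798 (median -0.65), with ABCE1 (-1.07), a ribosome recycling factor, and SMARCA5 (-0.95), a chromatin remodeller, and 170027998 to 187630999 (-0.78), with the cadherin-like FAT1 (-0.93) and CLCN3 (-1.02). Chromosome 8 had 120582945 to 129108900 (-0.52), where ATAD2 rose by 0.71 against the segment and KIAA0196 fell by 1.44, and 140898123 to 146062892 (-0.74), with PTK2 (-0.85) and TONSL (-1.42). Chromosome 17 from 10551874 to 29844895 (-0.69) held the corepressor gene NCOR1 (-1.44), and chromosome 2 from 95766219 to 128945188 (-0.62) held RANBP2 (-0.64), of the nuclear pore, and the mitotic kinase gene BUB1 (-1.23). On X, 100273960 to 109507827 (-0.65) held ACSL4 (-0.56). The segment on X from 200834 to 9679816 (-0.70) covers the tip and part of the stretch of lost transcripts described above. Its 11 hosts include genes of the tip that fell only in part, such as CD99P1 (-0.68, and -1.32 with induction in experiment 1). The 10 other tested genes between them had a median of -4.95, on a fitted scale that depends on 0 reads. Chromosome 18 changed sign along its length, with medians of 0.40 up to 19763004, -0.48 from 20516717 to 39647477 and 0.45 from 42281140 to 67866740. Its back-splice reads in the middle part went from 330, 292 and 305 to 143, 84 and 96.

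**Figure D4:**
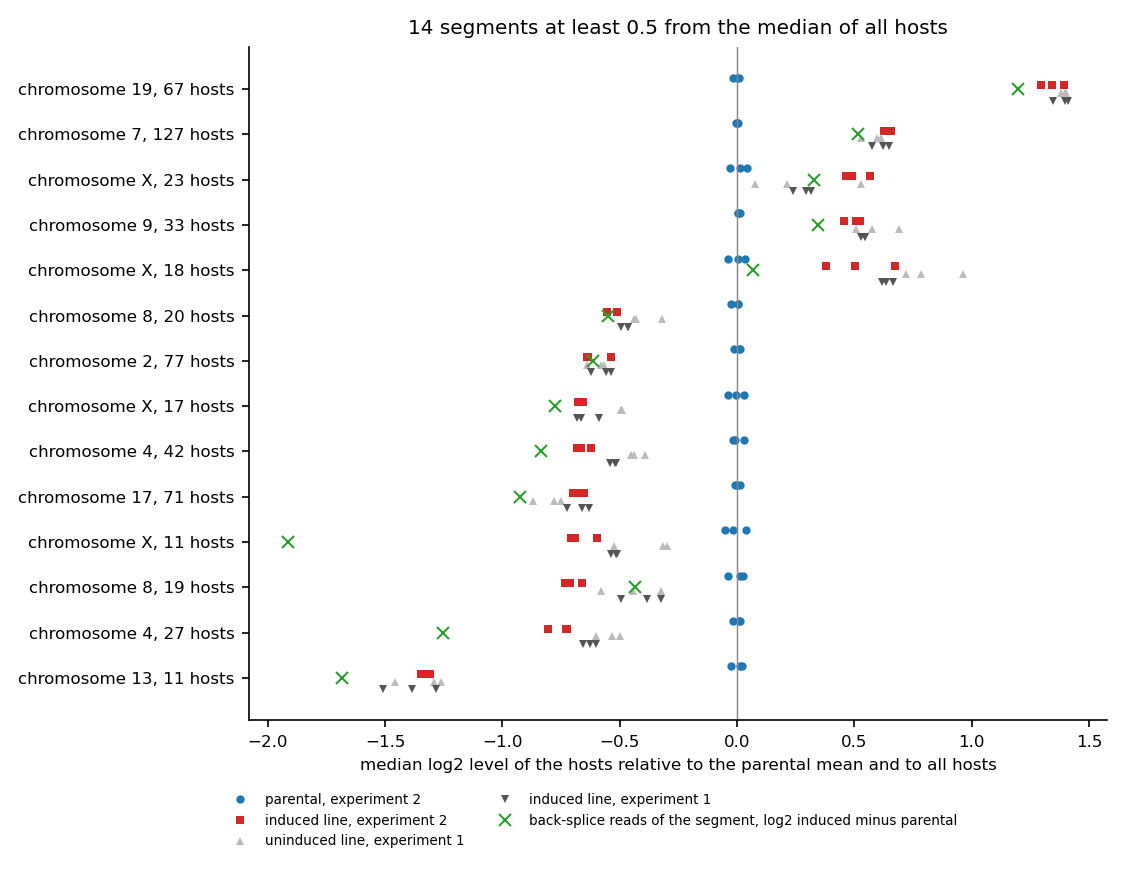
Median log2 level of the hosts in each of the 14 segments at least 0.5 from all hosts, per library, relative to the parental mean and to all hosts; crosses give the log2 difference of back-splice reads. On chromosome 19 the 9 libraries of the line sit between 1.29 and 1.41 and the parental ones near 0, and crosses lie on the side of the induced libraries in all 14.

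Back-splice reads moved with the hosts. Relative to the change over all hosts, the summed back-splice reads of a segment differed in the direction of its hosts in 46 of 48 segments. Libraries of the line in experiment 1, set against the same parental libraries, had the shift on chromosome 19 at 1.38 to 1.40 in uninduced and 1.35 to 1.41 in induced cells, and on chromosome 13 at -1.46 to -1.26 and -1.51 to -1.28. Some other segments matched less well. On chromosome 4 from 20258295 to 27010624, induced libraries of experiment 2 lay at -0.30 to -0.23. All libraries of experiment 1 lay at 0.0047 to 0.15 there. On X from 152014826, induced libraries of experiment 2 lay at 0.46 to 0.57. Experiment 1 had 0.075 to 0.53 there in uninduced and 0.24 to 0.32 in induced cells. Between induced and uninduced cells the 48 segments differed by a median size of 0.049 and at most by 0.24, on chromosome 6.

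Against this, 1 stretch differed within the line. By the same window rule, applied to experiment 1 after its profile was seen, chromosome 1 from 861302 to 29639218 had a median 0.38 above all hosts in induced cells, with 95 of its 134 hosts higher and 1 lower. Set against parental cells, its medians were -0.57, -0.55 and -0.62 in the uninduced libraries but -0.24, -0.21 and -0.21 in the induced libraries of experiment 1 and -0.27, -0.22 and -0.22 in those of experiment 2. The uninduced libraries lay below the 6 induced ones, which overlapped. In experiment 2 the stretch was thus 0.25 below all hosts, with 84 hosts lower and 21 higher.

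Turning to circRNAs, 2381 from 1490 host genes were tested and 40 were called, 17 higher (0.714%) and 23 lower (0.966%) in the induced line, 1.68% in all, from 34 hosts. An unadjusted p under 0.05 was found for 284. Of the 39 with a matched host, 37 had a host that was called in the same direction, where 39.1% of all hosts were higher and 35.6% lower. Hosts of 14 of the 40 lay in a segment, 35.0% against 29.5% of those tested, and 0 of the 14 went against the segment. Calls rested on few reads: 25 of the 40 lost their call under at least 1 alternative. Without induced library 1, 4 higher and 10 lower circRNAs were called, and lower calls numbered 9 without parental library 1 and 13 without parental library 3. The filter asks for reads in 3 libraries, so a circRNA with 0 reads in 1 group drops out when a library of the other group is left out. Each library was therefore also left out over the 2381 circRNAs of the full test. The circRNAs named below kept their calls in every alternative in which they were tested, unless stated.

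ERC1, a scaffold of presynaptic zones and of vesicle docking, gave the largest rises. Its circRNA of 3 exons on chromosome 12 (1345935 to 1399178) had 0 reads in the 3 parental libraries and 151, 158 and 132 in the induced ones, at least 177-fold higher. A circRNA of 4 exons with the same start (ending at 1481143) had 0 against 69, 39 and 44 reads, at least 61.2-fold higher, and 1 of 6 exons (ending at 1553916) had 0 against 12, 10 and 4, a call that ended without induced library 1 (adjusted p = 0.0628). All back-splice reads of ERC1 numbered 28, 30 and 34 in parental and 276, 258 and 232 in induced libraries, while the gene count rose by 0.41 on the log2 scale. In experiment 1 they numbered 36, 39 and 27 in uninduced and 67, 31 and 45 in induced cells. The 3-exon circRNA had 44 reads in uninduced and 53 in induced cells there, so the line held it before induction, whereas the induced libraries of experiment 2 had far more.

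Higher circRNAs of other hosts included AFF2 on X (147743429 to 147744289), with 2, 0 and 2 against 18, 26 and 33 reads, whose host gene rose by 3.74. CCDC18 had 16, 37 and 34 against 100, 61 and 86 reads (log2 1.79) with a host change of 0.21, and MAN1A2 (117944808 to 117963271) 58, 89 and 85 against 116, 111 and 137 (0.93) with 0.28; the MAN1A2 call ended without induced library 3 over the circRNAs of the full test (adjusted p = 0.0622). ITPR2, a calcium release channel, gave a circRNA of 11 exons with 0 against 13, 6 and 3 reads, and its call ended without induced library 1 (adjusted p = 0.218). The 7-exon circRNA of DNAH14 had 91, 75 and 77 against 145, 126 and 118 reads (0.93) in a higher segment of chromosome 1, and its call ended without induced library 1 (adjusted p = 0.0560).

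Lower circRNAs mostly came from hosts that fell. MID1 gave 1 circRNA with 32, 24 and 25 reads in parental cells and 0 in the line, at least 22.8-fold lower, and another with 20, 28 and 28 against 0, 1 and 2. SLC8A1, a sodium-calcium exchanger known for an abundant single-exon circRNA, had 21, 20 and 14 reads against 0, at least 15.5-fold lower, and was not listed in experiment 1. SPECC1 had 163, 204 and 214 against 54, 72 and 55 reads (log2 -1.41), FAT1 71, 54 and 85 against 17, 23 and 9 (-1.82), SMARCA5 64, 55 and 77 against 23, 12 and 27 (-1.38), FBXW7 55, 42 and 44 against 16, 4 and 7 (-2.12), SNX25 33, 19 and 25 against 1, 2 and 3 (-3.36) and RNF138 149, 127 and 150 against 64, 27 and 25 (-1.61). The hosts of these 6 fell by 0.66 to 1.33 and lie in low segments of chromosomes 17, 4 and 18. Of all 23 lower circRNAs, 10 had a host in a low segment. FOXK2 is among those outside the segments, with 68, 72 and 59 against 15, 15 and 16 reads (-1.85) and a host change of -0.17. The only called circRNA whose host was called the other way came from TCFL5. It had 20, 23 and 14 against 1, 6 and 0 reads (-2.72), with a host change of 0.52. Whether the TCFL5 call held in every alternative is not reported here.

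Set against their hosts, 2 of 2289 circRNAs were called (0.0874%), both higher and both from ERC1, with differences of 9.93 (adjusted p = 0.000122) and 8.36 (0.00181) on a fitted scale that depends on the 0 parental reads. An unadjusted p under 0.05 was found for 182. In simulated counts with known changes, this test recovered 8.79% of 2-fold and 64.2% of 4-fold changes. So few calls therefore do not show that the other circRNAs followed their hosts. Over the circRNAs of the full test, both calls held without each library in turn, except that of the 4-exon circRNA without induced library 3 (adjusted p = 0.0580), and limma called 5 higher and 4 lower. Total back-splice reads were 634, 548 and 571 CPM in parental and 579, 503 and 561 in induced libraries. These overlapped, with a log2 difference of -0.094 (2-sided exact permutation p = 0.5).

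**Figure D5:**
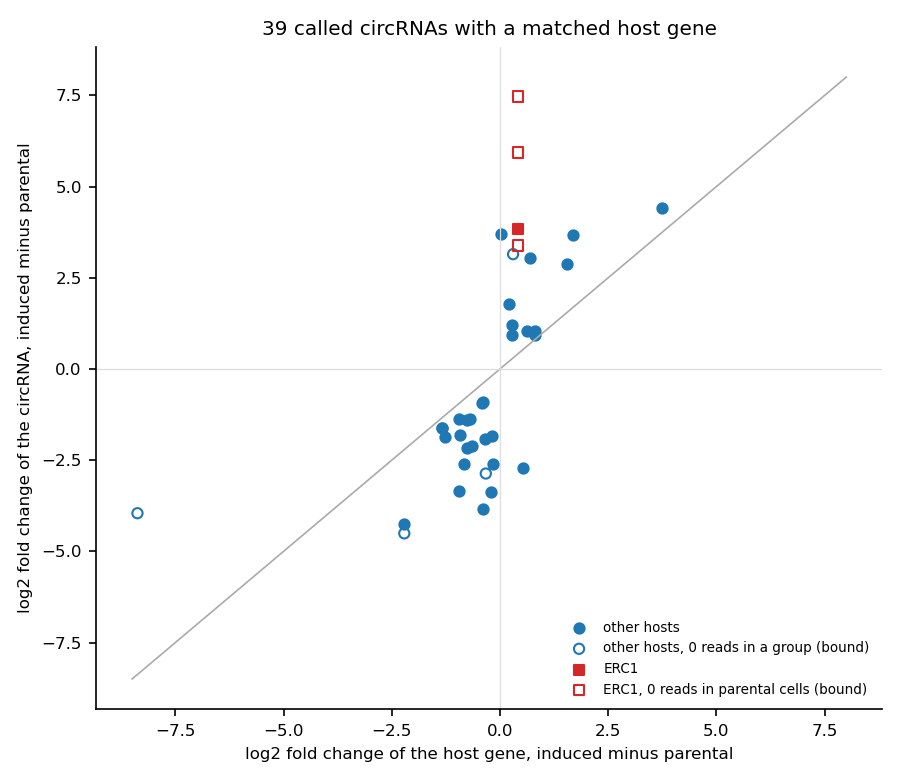
Log2 fold change (induced minus parental) of 39 called circRNAs against that of their host genes, with the line of equal change; open symbols have 0 reads in 1 group and are drawn at their bound. The circRNAs of ERC1 stand far above the line at a host change of 0.41, and the lower circRNAs lie mostly below the line with hosts that also fell. They were chosen by their calls, which favours large changes at low counts. No lower circRNA was called against its host in edgeR, a test that missed most simulated 2-fold changes.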

How the data were processed

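Total RNA was sequenced with an Illumina TruSeq RNA kit, from both ends, per the labels' protocols. The authors deposited whole-number read counts per gene and counts of back-splice reads per circRNA, without normalization. The submitters' processing notes name STAR 2.5.2b and GRCh37 (hg19); the counter, the circRNA caller, the annotation and a strand setting are not given in the sources used here. Columns were matched to samples by experiment, condition and replicate number. The members, lists and segments were chosen with earlier results of these data known.

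Low genes were removed by filterByExpr at a count of 10 and a total of 15, and libraries were scaled by TMM. The two-sided quasi-likelihood test came from edgeR 4.0.16 (R 4.3.3), with Benjamini-Hochberg adjustment over all features and calls at adjusted p under 0.05. A circRNA entered its test with 10 or more reads in total and reads in 3 or more libraries, and was tested with the effective gene library sizes, and against its host in a model with library as a block. CPM used effective library sizes, and library medians of segments used log2(CPM + 0.5). Bounds on folds rest on 3 reads over the group at 0, and floors cover counting error only. Named genes were, by rule, the RBFOX family, distal X genes, the 15 highest on and off genes and their neighbour runs, the 10 largest rises and falls at 5 CPM or more in both groups, up to 4 called members of each list and direction, 6 top hosts of each segment at least 0.5 away, and the called and most abundant circRNAs. SGCE, CDH2, WT1, FOXC1, PAX8 and GABA-A genes were added after their values were seen. Alternatives were DESeq2 1.42.0, limma 3.58.1 for the host test, other library sizes, filters and windows, the replicate number as a block, and leaving out each library. The scripts were tested on simulated data. RefSeq tables on GRCh38.p14 gave gene types, gene order and promoters. Some genes that the rule names are not reported here.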

Additional observations from a re-analysis of the deposited data

How the results depend on the processing

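Of 263 called genes that the naming rule picked, 9 lost their call under some alternative, and of 40 called circRNAs 25 did. The 23 chromosome medians kept their direction in all 207 values. Gene calls were 5560 higher and 5655 lower with DESeq2, 5392 to 5676 and 5563 to 5733 when 1 library was left out, and 5738 and 5886 under a replicate block. The numbers do not pair the libraries: same-number correlations of deviations were 0.00479, 0.0296 and -0.0162, and not every library correlated best with its own number. With that replicate block 14 circRNAs were called higher and 21 lower. RBFOX3, not called, changed sign without parental library 3 (0.038) or induced library 2 (0.076), in a range from -0.18; the cause was not tested, here and for the values that follow.

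Higher circRNAs numbered 26 with library sizes from back-splice totals, and 4 to 16 when 1 library was left out; lower ones numbered 9 to 25. Against hosts limma called 5 higher and 4 lower, and leaving out 1 library gave 0 to 2 higher, the 0 because the filter on reads in 3 libraries removes both circRNAs of ERC1. Over the circRNAs of the full test, an alternative chosen after seeing the data, leaving out 1 library gave 1 to 2 higher against hosts, and 6 to 20 higher and 11 to 25 lower circRNAs (13 lower without induced library 1 or 3). Genes that were on numbered 55 with at most 3 reads allowed in the off group, 19 at 50 reads or more and 54 at 5 or more. Those that were off numbered 195 and 41 by the first 2 rules. Segments numbered 30 with windows of 20 Mb and 22 at a difference of 0.5.

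With hosts of at least 10 CPM only, which tests fewer genes, segment medians were -0.66 (chromosome 8 from 120582945), -0.73 (17), 0.35 (18 from its start), 1.52 (19), -0.48, -0.68 and 0.39 (X from 200834, 100273960 and 152014826). Leaving out 1 library gave -0.70 to -0.62 (4 from 139981478), 0.63 to 0.66 (7), -0.60 to -0.49 and -0.78 to -0.70 (8), -0.72 to -0.67 (17), 0.36 to 0.40 and 0.43 to 0.49 (18), 1.34 to 1.41 (19), and -0.80 to -0.58 and -0.69 to -0.63 (X). It also gave 1 to 2 higher flanking genes of distal X, 0 to 1 higher haematopoietic and hepatocyte markers, 1 to 3 lower clustered protocadherins (1 with DESeq2) and 0 to 1 lower cancer-testis genes. Few back-splice reads per circRNA limit the circRNA calls.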
